A study of Mus musculus with 5 samples.

Results

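The TNF and TNF receptor superfamily was described in a mouse line of monocyte/macrophage type, RAW264.7, with and without an introduced mouse Cd137, a receptor gene whose symbol is Tnfrsf9. Members were chosen by name: every gene whose symbol starts with Tnfrsf or Tnfsf, together with Tnf, Lta, Ltb, Ltbr, Cd40, Cd40lg, Fas, Fasl, Cd27, Cd70, Ngfr, Eda2r and Edar, leaving out Tnfrsf9 itself, its ligand Tnfsf9 and Tnfrsf11a. The rule itself reads names and the presence of a value. This gave 36 members of the 16003 genes with a value, 22 receptors and 14 ligands. Of these, 19 reached 1 FPKM (a level per kilobase of transcript and per mapped fragments of the library) in at least 1 library and were tested. Tnfrsf11b, Fasl, Cd40lg, Tnfsf18, Tnfrsf19 and Edar are listed in the table with no value in any of the 3 libraries.

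Control cells carried Renilla luciferase alone, and CD137 cells carried Renilla luciferase and mouse Cd137, so the luciferase is common to both groups. The labels do not state how the genes were introduced, or whether either line is 1 clone. Of the 5 samples, 2 controls and 3 CD137, the table used here covers control replicate 2 and CD137 replicates 2 and 3, and the other 2 samples were not analysed here. CD137 values are therefore means ± SD of 2 libraries and the control is a single library with no spread of its own.

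Ligands of this superfamily are mostly trimeric proteins made at the cell surface, from which some are cut to soluble forms, and their receptors signal through several routes. Receptors with a cytoplasmic death domain, such as TNFR1 and Fas, assemble complexes with FADD and caspase-8 or with RIPK1, whereas receptors without one, such as CD40, TNFR2 and CD137, recruit TRAF adaptors that lead to NF-kB and MAP kinases. A further set binds ligand without passing a signal on. In macrophages the family is known for the TNF they release, for CD40, through which T cells activate them, and, in osteoclast formation, for RANK and its ligand.

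Promoter sequence is shown for members of the TNF and lymphotoxin cluster, because these neighbours did not all get the same call in the comparison, and for Fas, which stood among the largest differences. RefSeq promoter windows on GRCm38.p6, the assembly called mm10, run from 250 bases before to 50 bases after each gene's start and were matched by gene ID for 29 of the 36 members; Cd40, Cd70, Tnfrsf10b, Tnfrsf22, Tnfrsf26, Tnfsf12 and Tnfsf4 are not among them. Each sequence is written 5′ to 3′ on the gene's own strand and ends 1 base before the RefSeq start, except that of Lta, where a 30-base stretch lying 179 to 150 bases before the RefSeq start is given because the deposited table places the start 281 bases further upstream. Capitals mark the motif matches described after them. Fas lies on the plus strand at chr19:34290409-34290658, Ltb on the plus strand at chr17:35194257-35194506, Tnf on the minus strand at chr17:35202008-35202257 and the Lta stretch on the minus strand at chr17:35205501-35205530.
Fas: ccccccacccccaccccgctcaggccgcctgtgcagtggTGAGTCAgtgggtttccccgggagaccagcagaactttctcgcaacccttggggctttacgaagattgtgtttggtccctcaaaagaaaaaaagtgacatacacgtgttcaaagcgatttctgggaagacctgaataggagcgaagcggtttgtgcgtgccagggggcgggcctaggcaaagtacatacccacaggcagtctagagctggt
Ltb: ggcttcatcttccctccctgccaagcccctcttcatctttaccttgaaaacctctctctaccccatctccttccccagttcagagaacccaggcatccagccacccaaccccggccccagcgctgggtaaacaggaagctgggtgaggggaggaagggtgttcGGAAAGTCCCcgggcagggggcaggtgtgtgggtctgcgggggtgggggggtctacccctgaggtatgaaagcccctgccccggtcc
Tnf: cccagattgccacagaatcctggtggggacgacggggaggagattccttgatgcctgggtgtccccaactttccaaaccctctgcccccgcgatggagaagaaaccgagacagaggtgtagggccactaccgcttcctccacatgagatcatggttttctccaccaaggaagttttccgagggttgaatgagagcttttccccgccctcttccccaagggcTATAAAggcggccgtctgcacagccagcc
Lta: gtgcagaagtgaTATAAAccatcactcttc

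Motifs were searched on both strands of these 300-base windows, and each match is a description of letters only. The capitals in Fas are the AP-1 site TGANTCA, first base 211 bases before the start. An AP-1 match was found in 5 of the 29 members with a window and in 7.81% of all 32851 RefSeq promoters. The capitals in Ltb are the NF-kB consensus, read from the minus strand, 87 bases before the start; 2 of the 29 members, Ltb and Tnfrsf8, held it, against 4.51% of all promoters. The capitals in Tnf and Lta are the TATA motif TATAAA, 29 bases before the start of Tnf and 167 bases before the RefSeq start of Lta. By the deposited start of Lta, which lies further upstream, the Lta match falls inside the gene. The TATA motif was found in 6 of the 29 members and in 13.6% of all promoters. The motifs searched do not overlap one another in the sequences printed.

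The labels were checked on Tnfrsf9, which had 5.06 FPKM without the introduced gene against 364 and 370 FPKM with it, introduced and endogenous sequence not being separated. Whole reads solved from the authors' deposited p-values for 15060 genes, and for 35 of the 36 members, summed to between 11987103 and 12173541 per library. Of 10 macrophage markers 9 were at 1 FPKM or more, and their summed level was 3122 FPKM in the control and 1964 and 2012 FPKM in the CD137 libraries. These markers split: Lyz2 (1693, 646 and 669 FPKM), Csf1r, Cd68 and Cd14 were lower in both CD137 libraries, whereas Fcgr1 (45.2, 89.9 and 95.2 FPKM), Adgre1, Itgam, Ptprc and Spi1 were higher in both. Of 8 T and NK cell markers 3 had a value, and these summed to 0.41 FPKM in the control and 0.38 and 0.49 FPKM in the CD137 libraries. The 3 B cell markers with a value summed to 0.65, 1.03 and 1.93 FPKM. Epithelial markers summed to 0.67 FPKM in the control and to 6.28 and 1.17 FPKM in CD137 replicates 2 and 3, and fibroblast markers to 0.29, 0.90 and 0.24 FPKM. The labels do not tie the libraries to separate cultures. The p-values therefore measure no more than how these libraries vary, and that variation may be technical.

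In CD137 cells 8 members of the superfamily rose and 1 fell, and 10 of the 19 tested did not pass (limma on log2(FPKM + 1), adjusted p under 0.05 over 10720 genes). Cd40, Lta and Fas rose most, by 4.76-fold, 6.94-fold and 5.08-fold in FPKM, while Tnf itself did not pass. Over all genes tested, 24.4% were called higher and 18.2% lower. The members' median difference was 0.27 on the log2(FPKM + 1) scale, beside 0.03 for all genes tested. Both CD137 libraries lay above the control for 15 of the 19 members, beside 49% of all genes tested, and below it for 3, beside 40.2%. Fas, Lta, Tnfrsf18 and Cd27 reached 1 FPKM in CD137 libraries only, so that being high there let them into the test. Fas, Lta and Tnfrsf18 are also among the 15 counted above the control, so that count leans on the same minimum. Of the 15 members at 1 FPKM or more in the control, 5 rose and 1 fell, with a median difference of 0.22. The shares and median over all genes were not limited to genes at that level in the control. They are therefore not a like background for these last counts. In a limma fit of all 16003 genes, without the minimum of 1 FPKM, 0 genes passed, members included; 16 members there had an unadjusted p under 0.05. In bulk RNA, fewer cells carrying a transcript and less of it per cell cannot be told apart.

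**Figure D1:**
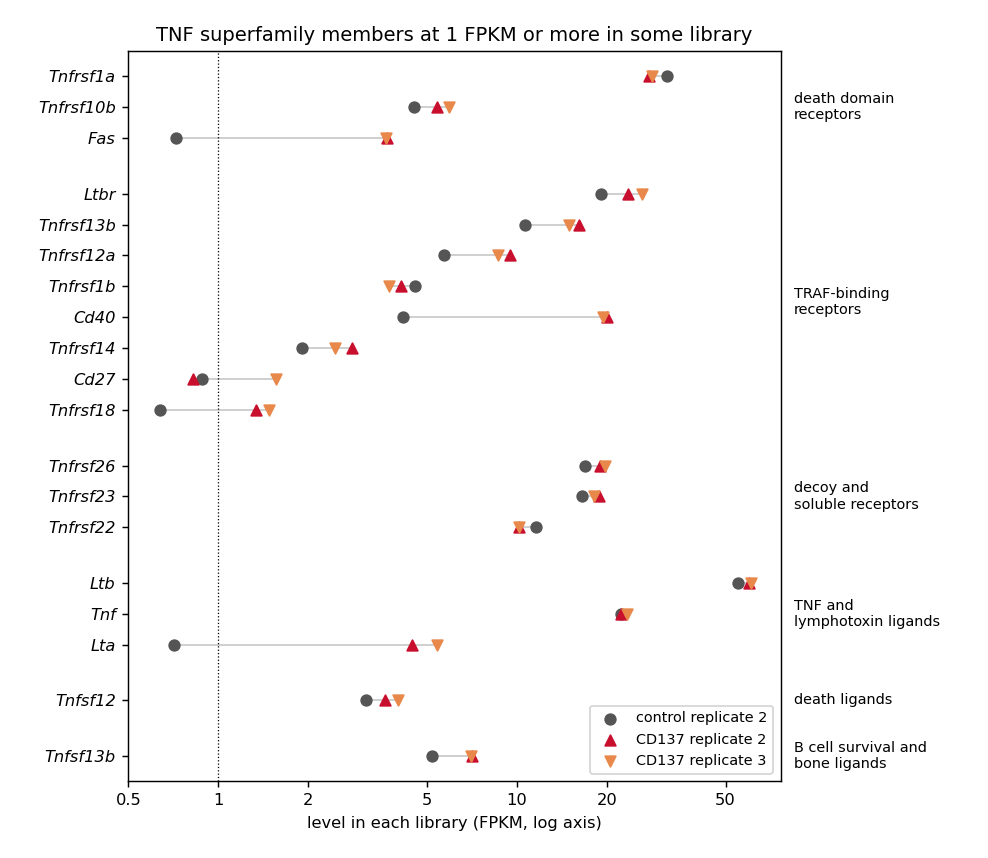
Level of each of the 19 tested members in FPKM (log axis) in control replicate 2 (circles) and CD137 replicates 2 and 3 (upward and downward triangles), ordered by role; the dotted line marks 1 FPKM. Cd40, Fas and Lta show the widest gaps between the control and both CD137 libraries, whereas the 3 points of Tnf nearly coincide.

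Of 3 receptors with a death domain that were tested, 1 rose and 1 fell, beside 24.4% and 18.2% of all genes; the 1 that rose, Fas, is among those let into the test by their CD137 level. Fas, the receptor through which Fas ligand triggers apoptosis (gene ID 14102, chr19:34290659-34327775, plus strand), had a control level of 0.72 FPKM, beside 3.66 FPKM in CD137 replicate 2 and 3.65 FPKM in replicate 3. The CD137 libraries were nearly equal and both far above the control, and their mean, 3.66 ± 0.01 FPKM (SD, n = 2), was 5.08-fold the control. These values rest on 19, 90 and 95 reads, a read ratio of 4.94 with a 95% interval of 3.08 to 8.39 that covers counting error only, as all intervals given here do. Fas rose by 1.44 ± 0.10 (SE) on the log2(FPKM + 1) scale, adjusted p = 0.00141 with limma. Its ligand Fasl had no value.

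Tnfrsf1a, which encodes TNFR1, the main receptor of soluble TNF, was the highest of the receptors, with 31.7 FPKM in control cells, 27.8 FPKM in CD137 replicate 2 and 28.3 FPKM in replicate 3. Both CD137 libraries lay below the control, and the gene fell by 0.17 ± 0.05 on the log2(FPKM + 1) scale (adjusted p = 0.0398), a read ratio of 0.883 (0.823 to 0.948). This call did not hold without limma's variance trend, where its adjusted p was 0.0789, in a range of 0.0248 to 0.103 over the alternatives. Tnfrsf10b, which encodes the mouse receptor of TRAIL, was at 4.53, 5.39 and 5.94 FPKM, both CD137 libraries above the control, with an adjusted p of 0.0668. Tnfrsf25, Ngfr and Tnfrsf21 stayed at or under 0.35 FPKM in every library.

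Of 8 TRAF-binding receptors tested, 5 rose and 0 fell, beside 24.4% and 18.2% of all genes, and Tnfrsf1b, Tnfrsf14 and Cd27 were not called. Without Tnfrsf18 and Cd27, which reached 1 FPKM in CD137 libraries only, 4 of 6 rose, and the share of all genes limited in this way was not computed. The levels of all 13 TRAF-binding receptors with a value, tested or not, summed to 48.9 FPKM in control cells, and to 79.98 and 80.3 FPKM in the CD137 libraries. Cd40, the receptor through which helper T cells activate macrophages and B cells (gene ID 21939, chr2:165055608-165071654, plus strand), had a control level of 4.15 FPKM, and reached 20.03 FPKM in CD137 replicate 2 and 19.4 FPKM in replicate 3. Both CD137 libraries lay far above the control and close together. Their mean, 19.7 ± 0.42 FPKM (SD, n = 2), was 4.76-fold the control, and the read ratio was 4.75 (3.94 to 5.76), from 124, 589 and 571 reads. Cd40 rose by 2.01 ± 0.06 on the log2(FPKM + 1) scale, adjusted p = 0.000552, the smallest of any member. Its ligand Cd40lg had no value.

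Tnfrsf12a, which encodes Fn14, the receptor of TWEAK, rose from 5.72 FPKM to 9.50 and 8.62 FPKM in CD137 replicates 2 and 3. The difference was 0.58 ± 0.08 on the log2(FPKM + 1) scale (adjusted p = 0.00627), and its ligand Tnfsf12 was at 3.13, 3.61 and 3.99 FPKM without passing (adjusted p = 0.139). Tnfrsf12a overlaps Hcfc1r1 on the opposite strand by 80 bases, and whether strand was used in counting is not given in the sources used here. Tnfrsf13b, which encodes TACI, a receptor of BAFF and APRIL best known from B cells, rose from 10.6 FPKM to 16.2 and 15.0 FPKM, by 0.51 ± 0.07 (adjusted p = 0.00564). In the same libraries the 3 of 5 B cell markers with a value summed to 0.65, 1.03 and 1.93 FPKM, and their part in the Tnfrsf13b values was not tested.

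Ltbr, the receptor of membrane lymphotoxin, rose by 0.36 ± 0.08 on the log2(FPKM + 1) scale (adjusted p = 0.01997), from 19.1 FPKM in the control to 23.5 and 26.3 FPKM; without the variance trend its adjusted p was 0.0508, in a range of 0.0102 to 0.181 over the alternatives. Its CD137 libraries were both above the control, replicate 3 more so than replicate 2. Tnfrsf18, which encodes GITR, was low throughout, with 0.64 FPKM in control cells against 1.34 and 1.48 FPKM with CD137. It rose by 0.55 ± 0.13 (adjusted p = 0.0261) on 12, 24 and 29 reads, and did not pass in limma-voom on those reads (adjusted p = 0.0583, in a range of 0.0156 to 0.0904 over the alternatives). Tnfrsf4, which encodes OX40 and lies 9550 bases from Tnfrsf18 on the same strand, had 0.77 FPKM in control cells against 0.35 and 0.53 FPKM with CD137, a read ratio of 0.537 (0.261 to 1.11).

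Tnfrsf1b, which encodes TNFR2, the receptor that prefers membrane-bound TNF, had 4.56 FPKM in control cells, 4.10 FPKM in CD137 replicate 2 and 3.73 FPKM in replicate 3, both below the control, with an adjusted p of 0.185 (unadjusted p = 0.116). Tnfrsf14, which encodes HVEM, the receptor of LIGHT, was at 1.90, 2.81 and 2.46 FPKM (adjusted p = 0.0775). Cd27, a receptor of T and B cells bound by CD70, was the only tested member whose CD137 libraries lay on either side of the control, with 0.88 FPKM in control cells and, in CD137 replicates 2 and 3, 0.82 and 1.56 FPKM (adjusted p = 0.519). The B cell markers were also highest in CD137 replicate 3, with Cd79b at 0.14, 0.34 and 1.01 FPKM, and their part in the Cd27 value was not tested. Below the level tested, Eda2r, the receptor of ectodysplasin A2, had 0.24, 0.79 and 0.78 FPKM, control first, from 26, 79 and 62 reads, a read ratio of 2.75 (1.80 to 4.36). Tnfrsf17, Tnfrsf13c and Tnfrsf8 stayed at or under 0.36 FPKM.

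**Figure D2:**
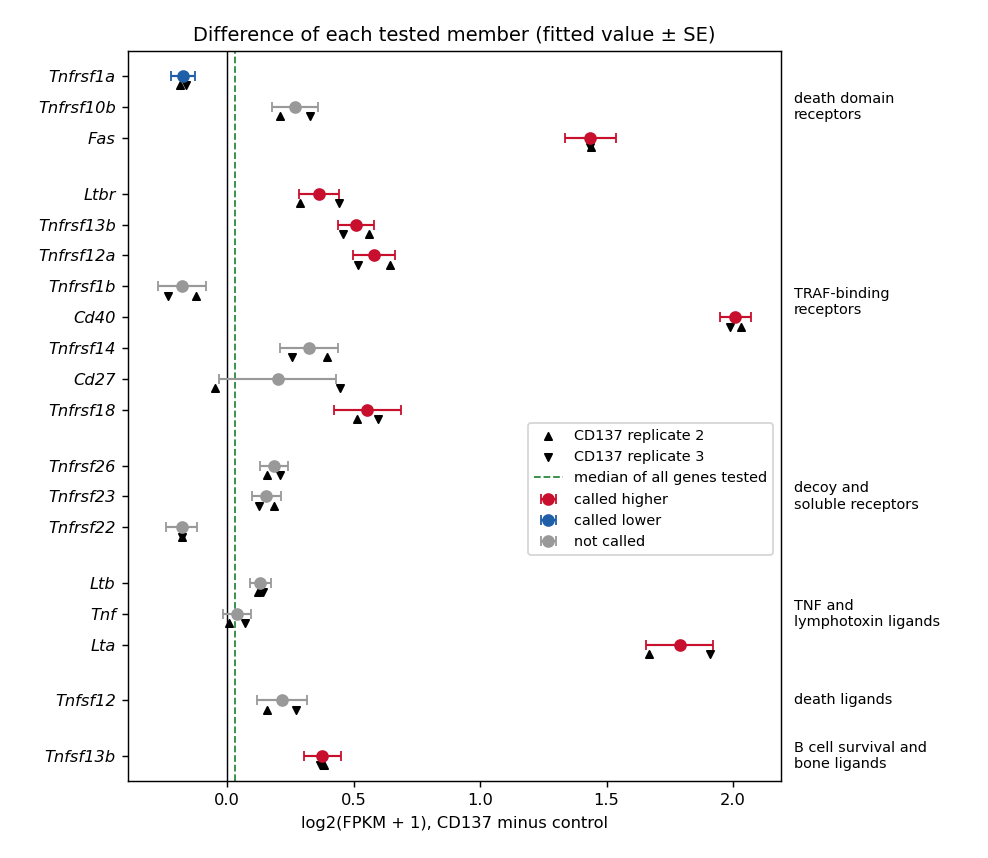
Difference of each tested member between CD137 and control on the log2(FPKM + 1) scale, as the fitted value ± SE (circles, coloured by call) and for each CD137 library against the control (triangles); the dashed line is the median of all genes tested, 0.03. Cd40, Lta and Fas lie between 1.44 and 2.01, and the other members between -0.18 and 0.58.

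Tnfrsf22 and Tnfrsf23 encode TRAIL receptors without a death domain, and Tnfrsf26 is a relative grouped with these decoys. The 3 genes lie in a row on chromosome 7 and were all well expressed. Of the 3, 0 passed the limma test, beside 24.4% of all genes called higher and 18.2% lower. Tnfrsf26 was at 16.9, 19.0 and 19.7 FPKM and Tnfrsf23 at 16.5, 18.9 and 18.1 FPKM in the control and CD137 replicates 2 and 3, both CD137 libraries above the control. Tnfrsf22 had 11.6 FPKM in control cells and 10.2 FPKM in either CD137 library, below the control. Read ratios were 1.15 (1.06 to 1.24) for Tnfrsf26, 1.12 (1.04 to 1.21) for Tnfrsf23 and 0.874 (0.804 to 0.951) for Tnfrsf22. The adjusted p-values were 0.0514, 0.0855 and 0.0705 for Tnfrsf26, Tnfrsf23 and Tnfrsf22, those unadjusted 0.0221, 0.0431 and 0.0335, and with limma-voom on recovered reads 0.0316, 0.0586 and 0.0321. These genes are close relatives, and how the authors' counting shared reads between such copies is not given in the sources used here.

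Of 3 TNF and lymphotoxin ligands tested, 1 rose and 0 fell, beside 24.4% and 18.2% of all genes. The 1 that rose, Lta, is among those let into the test by their CD137 level. Its neighbours Tnf and Ltb, both at 1 FPKM or more in the control, were not called. The 3 genes lie within one stretch of chromosome 17, in mm10: Ltb on the plus strand (chr17:35194507-35196305), Tnf on the minus strand (chr17:35199367-35202007) and Lta on the minus strand (chr17:35203165-35205632). Ltb and Tnf are 3061 bases apart, and Tnf and Lta 1157 bases. Lta, which encodes lymphotoxin alpha, a secreted ligand of the TNF receptors and a subunit of membrane lymphotoxin, rose from a control level of 0.71 FPKM to 4.44 FPKM in CD137 replicate 2 and 5.42 FPKM in replicate 3, both far above the control. Their mean, 4.93 ± 0.69 FPKM (SD, n = 2), was 6.94-fold the control, and 18, 110 and 135 reads gave a ratio of 6.91 (4.28 to 11.8). The difference was 1.79 ± 0.13 on the log2(FPKM + 1) scale, adjusted p = 0.00151. T and NK cells also make lymphotoxin; the 3 of their 8 markers with a value, Cd4, Cd8a and Zap70, summed to 0.41, 0.38 and 0.49 FPKM, and their part in the Lta values was not tested.

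Tnf, the best known product of activated macrophages, had 22.2 FPKM in control cells, 22.4 FPKM in CD137 replicate 2 and 23.4 FPKM in replicate 3. The 3 values nearly coincide, and the difference was 0.04 ± 0.06 on the log2(FPKM + 1) scale (adjusted p = 0.602), with a read ratio of 1.03 (0.936 to 1.13) from 653, 645 and 679 reads. Ltb, which encodes the membrane anchor of the lymphotoxin heterotrimer, was the highest member of all, with 55.0 FPKM in control cells and 59.96 and 60.8 FPKM with CD137. Both CD137 libraries lay above the control, by 0.13 ± 0.04 on the log2(FPKM + 1) scale, without passing (adjusted p = 0.0571). In FPKM, a scale per transcript length, Lta stayed under both Tnf and Ltb in every library. Tnfsf14, which encodes LIGHT, stayed at or under 0.12 FPKM.

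**Figure D3:**
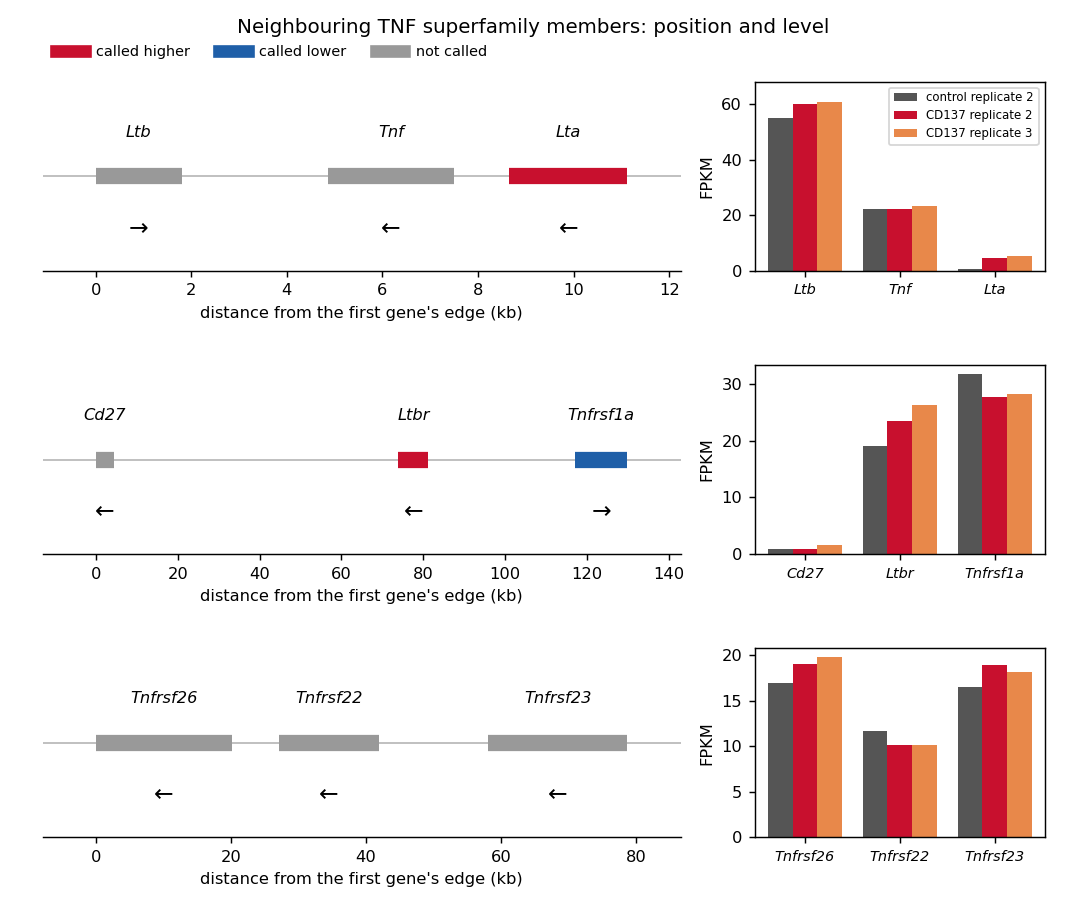
Position along the chromosome, as distance in kb from the edge of the first gene of each row (left, arrows give the strand, colour the call), and level in FPKM in each library (right, bars from 0, 1 library each) for 3 groups of neighbouring members. Lta, let into the test by its CD137 level, rose beside Tnf and Ltb, which were not called. Ltbr rose and Tnfrsf1a fell at the second site, both calls being lost without limma's variance trend. At the third, 0 of the 3 decoy receptor genes were called, beside 24.4% of all genes called higher and 18.2% lower.

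Neighbours also got unlike calls elsewhere. On chromosome 6, Ltbr (chr6:125306571-125313870, minus strand) rose and Tnfrsf1a (chr6:125349723-125362483, plus strand), 35852 bases away, fell, while Cd27, 69543 bases on the other side of Ltbr, was not called. Without limma's variance trend neither Ltbr nor Tnfrsf1a was called. Whether the neighbours' differences differ from each other was not tested.

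Death ligands were few in these cells. Tnfsf12, which encodes TWEAK, was the only one tested, and it overlaps the read-through gene Tnfsfm13, described below, on the same strand. Tnfsf10, which encodes TRAIL, was at 0.12, 0.12 and 0.15 FPKM. Tnfsf15, which encodes TL1A, had 0.02, 0.13 and 0.16 FPKM, control first, from 2, 13 and 16 reads, a ratio of 7.36 (1.86 to 63.6). Of the co-stimulatory ligands 0 of 3 with a value reached 1 FPKM. Tnfsf8, the CD30 ligand, had 0.78 FPKM in control cells, 0.43 FPKM in CD137 replicate 2 and 0.15 FPKM in replicate 3, from 31, 17 and 6 reads, a ratio of 0.376 (0.210 to 0.667). Its CD137 libraries differed beyond counting as well, with a ratio of replicate 3 to replicate 2 of 0.351 (0.113 to 0.933). Cd70 and Tnfsf4 had at most 3 reads in any library.

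Of the ligands that sustain B cells or act in bone, Tnfsf13b, which encodes BAFF (gene ID 24099), was the only one tested. It rose from 5.20 FPKM to 7.09 and 7.0 FPKM in CD137 replicates 2 and 3, by 0.38 ± 0.07 on the log2(FPKM + 1) scale (adjusted p = 0.0143). Its receptor gene Tnfrsf13b also rose, and the other BAFF receptor genes Tnfrsf13c and Tnfrsf17 were near 0. Tnfsf11, which encodes RANKL, the ligand that drives osteoclast formation, was at 0.03 FPKM in CD137 replicate 2 and at 0 in the other 2 libraries.

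Tnfsf13, which encodes APRIL, and Tnfsfm13, a read-through gene that joins Tnfsf12 to Tnfsf13, share 2978 bases on the same strand of chromosome 11. Tnfsfm13 also overlaps Tnfsf12 by 9859 bases on that strand. Tnfsf13 had 0.18 FPKM in control cells against 0.51 and 0.66 FPKM with CD137, while Tnfsfm13 had 0.49 FPKM against 0.01 and 0.02 FPKM. With 19 reads in the control and 0 in both CD137 libraries, Tnfsfm13 was at least 12.5-fold lower there, against a floor of 3 reads over both libraries; its counting interval, which includes the error of the control reads, allows a ratio of up to 0.109. Summed, Tnfsf13 and Tnfsfm13 had 24, 14 and 19 reads, a ratio of 0.698 (0.40 to 1.23). That sum leaves out Tnfsf12, which had 94, 106 and 118 reads. The split of shared reads among these genes in the authors' counting is uncertain.

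**Figure D4:**
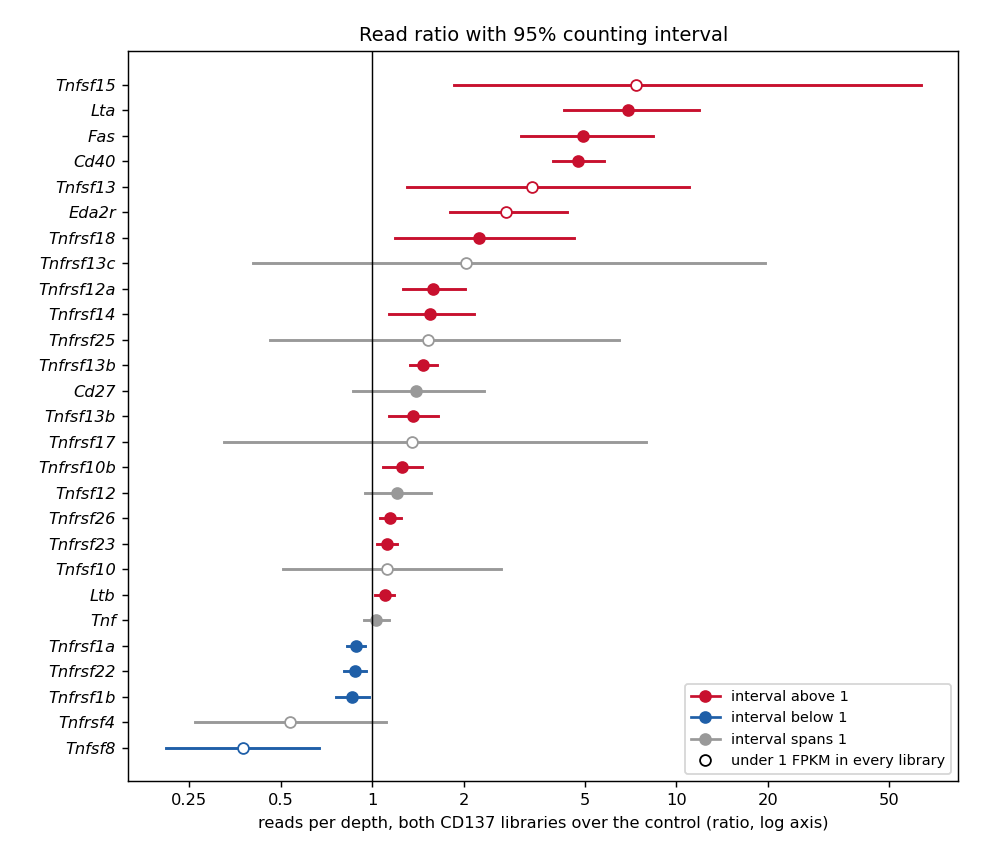
Ratio of recovered reads per depth, both CD137 libraries over the control (log axis), with its 95% counting interval, for the 27 members with at least 10 reads over the 3 libraries and a read in a CD137 library; open circles are members under 1 FPKM in every library. Tnfsf15, Lta, Fas and Cd40 have the highest ratios and Tnfsf8 the lowest.

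Counting intervals reach members below the tested level, though they leave out the spread between libraries. The interval lay above 1 for 15 of 35 members, 3 of them untested (Eda2r, Tnfsf13 and Tnfsf15), beside 25.2% of all 15060 genes with recovered reads. Ltb, Tnfrsf14, Tnfrsf10b, Tnfrsf26 and Tnfrsf23 are among these too, though limma did not call them. The interval lay below 1 for 5, of them Tnfsf8 and Tnfsfm13 untested and Tnfrsf1b and Tnfrsf22 tested without a call, beside 18.6%. Between the CD137 libraries, Cd27, Tnfrsf25 and Tnfsf8 differed beyond counting, 3 of 35 members beside 7.82% of all genes. Ltbr, at 23.5 and 26.3 FPKM in these libraries, had no recovered reads and could not be assessed in this way. The lowest level tested was that of Tnfrsf18, at most 1.48 FPKM, and the highest left untested that of Eda2r, at most 0.79 FPKM. Of the 17 untested members, 7 had fewer than 10 reads over the 3 libraries, and a difference was not detectable for them at this depth.

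Genes that carry the signal of these receptors were counted in the same fit, beside the same background of 24.4% higher and 18.2% lower. Of 30 adaptors and signal proteins of TNF receptors, 12 rose, 1 fell and 17 did not pass, with a median difference of 0.11 beside 0.03 for all genes tested. Birc3, which encodes the ubiquitin ligase cIAP2, rose by 1.19 ± 0.05 on the log2(FPKM + 1) scale, from 30.4 FPKM in the control to 68.9 and 72.4 FPKM (adjusted p = 0.000755). Traf1, an adaptor that binds TRAF2, rose by 0.91 ± 0.07, from 7.16 FPKM to 13.9 and 14.8 FPKM (adjusted p = 0.00151). Casp8, the caspase that Fas engages, rose from 34.6 FPKM to 44.7 FPKM in each CD137 library, and Tab2, a subunit of the TAK1 complex, from 42.2 to 53.6 and 52.5 FPKM. Diablo, whose product blocks IAP proteins, rose from 13.5 to 18.1 and 18.9 FPKM. Ripk1, the kinase recruited to TNFR1, was the 1 that fell, from 13.9 FPKM in the control to 9.30 and 9.64 FPKM, by 0.51 ± 0.06 (adjusted p = 0.00435).

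Of 14 brakes on TNF receptor signalling, 4 rose, 4 fell and 6 did not pass, with a median of 0.02. The background was 24.4% higher and 18.2% lower. Tank, which encodes a TRAF-binding regulator, rose from 30.9 FPKM in the control to 45.7 and 45.8 FPKM, Rnf11, a partner of the A20 complex, from 16.7 to 25.0 and 24.2 FPKM, and Cyld, a deubiquitinase, from 10.3 to 12.5 FPKM in each CD137 library. Tnip3, which encodes an A20-binding protein, fell from 10.5 FPKM to 6.11 and 5.28 FPKM, by 0.78 ± 0.10 on the log2(FPKM + 1) scale (adjusted p = 0.00448). Tnfaip3, which encodes A20 itself, fell from 8.55 FPKM to 6.97 and 6.36 FPKM, and Spata2, a partner of CYLD, from 11.8 to 9.25 and 9.57 FPKM. The highest of the list, Tax1bp1, was at 43.1, 48.8 and 46.4 FPKM and did not pass.

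Of 9 genes for shedding and maturation of family proteins, 7 were tested, 2 rose and 2 fell, with a median of 0.01. Beside them, 24.4% of all genes rose and 18.2% fell. Adam17, the protease that releases TNF, had 60.8, 61.5 and 60.1 FPKM, control first, without passing. Rhbdf2, which encodes iRhom2, the carrier of ADAM17 to the surface, rose from 16.4 FPKM to 21.0 and 22.3 FPKM, whereas Frmd8, which stabilises iRhom proteins, fell from 17.4 to 12.1 and 12.4 FPKM. Of the intramembrane proteases that cut the remaining TNF stub, Sppl2a rose from 25.7 FPKM to 29.6 and 29.2 FPKM and Sppl2b fell from 11.3 to 7.24 and 7.27 FPKM.

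Of 14 regulators of Tnf messenger RNA and its export, 3 rose, 3 fell and 8 did not pass, with a median of 0.03. Zfp36, which encodes tristetraprolin, the protein that marks Tnf messenger RNA for decay, rose by 0.58 ± 0.05 on the log2(FPKM + 1) scale, from 15.0 FPKM in the control to 22.7 and 23.0 FPKM (adjusted p = 0.00204). Litaf rose from 79.5 FPKM to 89.0 and 96.4 FPKM and Mapkapk3, a kinase of the p38 route, from 0.38 to 1.04 and 1.11 FPKM; Mapkapk3 reached the tested level in CD137 libraries only. The 3 of 14 that rose and the 3 of 14 that fell stand beside backgrounds of 24.4% and 18.2%. Hnrnpd fell from 29.5 FPKM to 19.5 and 18.2 FPKM, Khsrp from 36.6 to 27.6 and 26.9 FPKM, and Elavl1 from 16.3 to 13.6 and 13.2 FPKM. Mapkapk2, the highest of the list, was at 187, 202 and 198 FPKM and did not pass.

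Of the genes named as TNF alpha induced proteins, 4 were tested: Tnfaip1 and Tnfaip8 rose and Tnfaip2 fell, with a median of 0.11. Of all genes tested, 24.4% rose and 18.2% fell. Tnfaip2, the highest, had 31.1 FPKM in control cells against 27.3 and 27.5 FPKM with CD137. Of 7 partners and relatives that the name rule does not take in, 3 were tested and all 3 rose, with a median of 0.72. This list is short and, like the others, was chosen with earlier results of these data known. Relt, itself a TNF receptor superfamily gene by another name, went from 4.95 FPKM to 8.83 and 8.82 FPKM, Lgals9, the lectin galectin-9, from 7.11 to 11.8 and 12.9 FPKM, and C1qtnf6, whose product carries a TNF-like domain, from 7.97 to 13.7 and 13.8 FPKM.

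**Figure D5:**
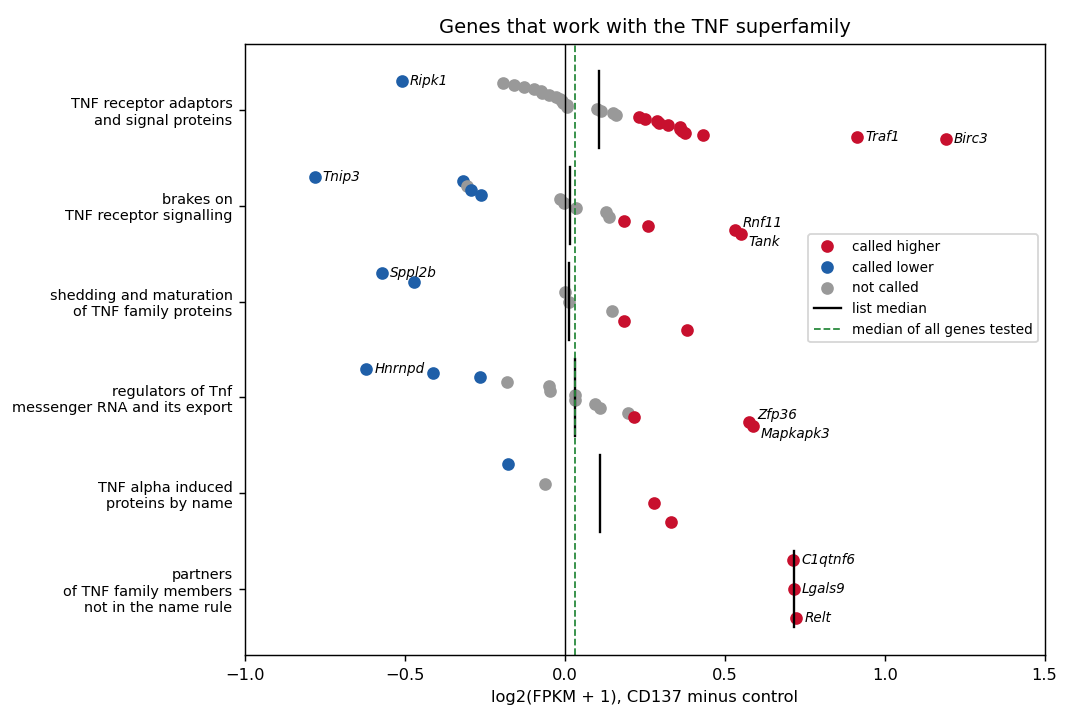
Difference between CD137 and control on the log2(FPKM + 1) scale for the tested genes of 6 lists (points, coloured by call), with each list's median (black) and the median of all genes tested (dashed); names are given for called genes at 0.5 or more in size. Birc3 at 1.19 is the highest and Tnip3 at -0.78 the lowest.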

How the data were processed

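Expression was measured in RAW264.7 cells after oligo-dT selection, per the labels' protocols, and sample titles gave the groups and replicate numbers. The FPKM values are the authors', deposited to 2 decimals with 1 column per library. HISAT2, Bowtie2, RSEM and mm10 appear in the submitters' processing notes, which give no role or version for them. Because FPKM is scaled to each library's total, a shift of abundant genes would move every other gene. The deposited log2 ratios of library pairs were left unused, and so were the deposited adjusted values, some above 1, which were read as a score. The deposited p-value of each library pair was taken to come from a Poisson test and served only to solve for the whole reads behind it. The authors' column names point to a Poisson test for the adjusted values only. A single solution was found for 94.1% of genes, with depths of 0.983 and 0.988 of the control's in CD137 replicates 2 and 3.

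Differences were fitted with limma 3.58.1 (R 4.3.3) on log2(FPKM + 1), a scale that understates the change of low genes, using moderated variances that follow the mean. Only genes reaching 1 FPKM in some library entered, 10720 in all, and p-values were adjusted over all of them by Benjamini-Hochberg with a threshold of 0.05. There is 1 residual degree of freedom: all spread is that of the CD137 pair, and the control library is taken to vary alike. The fit and the solving of reads were also run on simulated data. The spread between simulated libraries was assumed, so it does not measure how the single control varies. Reads were simulated for genes that had a single solution, with p-values from the same model. Read ratios carry 95% exact intervals for counting error. Members, the 6 gene lists and the choice of this fit for saying what rose or fell were made with earlier results of these data known. All members reaching 1 FPKM are named with values, the others with values or a range. From each list, up to 6 genes past the threshold with the smallest p, and the gene of highest level, are named. The 8 tested alternatives changed the pseudocount, minimum level, scaling, variance trend or input values; 2 others left out a CD137 library.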

Additional observations from a re-analysis of the deposited data

How the results depend on the processing

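Without a minimum level, limma called 0 of 36 members, 0 of 16003 genes and 0 of 78 list genes. Of these, 16, 5281 and 37 had an unadjusted p under 0.05. The smallest adjusted p in that fit was 0.0802, so every call in the text depends on setting a minimum level. Tnfrsf9, the introduced gene, did not pass in that fit either. With the minimum of 1 FPKM kept, limma-voom on recovered reads called 10 of 18 members, 4628 of 9798 genes and 40 of 69 list genes. The 7 tested alternatives that kept a minimum level, limma-voom among them, gave 7 to 10 calls among the members. They gave 3801 to 4628 calls among all genes and 31 to 40 among list genes, each within 1.5 times the values reported. With a mean of at least 1 FPKM Tnfrsf26 was added, and with at least 5 FPKM Ltb and Tnfrsf26, while Fas and Tnfrsf18 fell out of the test. Rescaling by median ratios added Tnfrsf22 as lower and moved the median of all genes tested from 0.03 to 0.001. Without the variance trend Ltbr and Tnfrsf1a were lost. Limma-voom added Tnfrsf10b, Tnfrsf22 and Tnfrsf26 and lost Tnfrsf18; Ltbr, with no recovered reads, was not in it. Cd40, Lta, Tnfrsf13b, Tnfrsf12a and Tnfsf13b passed in all 7. Leaving out either CD137 library, 1 against 1 and with no test, kept the direction of every member called. No paired analysis was possible because the libraries used share only replicate number 2. Members under about 10 reads over the 3 libraries are limited by depth.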
